A study of Mus musculus with 8 samples.

Results

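The genes described here are 10 chaperones of the mouse testis: the cytosolic chaperones Hsp90aa1, Hsp90ab1, Hspa8, Hspa2 and Hspa1l, and the endoplasmic reticulum (ER) chaperones Hspa5, Canx, Calr, Clgn and Calr3. They were found by gene name or older symbol among the non-control spots of the arrays. All 10 were present, with 16 probes, and all 16 probes passed the filter on dim signals, so no member was lost. The arrays held 41174 probes, and 22975 of them, for 16969 genes, were kept and tested.

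The study was about Sertoli-cell-rich areas of the testis after exposure to DEHP, di-(2-ethylhexyl) phthalate, which softens plastics. Male C57BL/6J mice aged 21 weeks received either DEHP at 200 mg/kg/day dissolved in corn oil or corn oil alone (vehicle), by daily gavage for 21 days, with 4 mice in each group. Areas of the intermediate layer of the seminiferous epithelium were cut by laser from stained sections of the right testis, and RNA from 1 capture per mouse was amplified. Each DEHP mouse was compared with 1 vehicle mouse on 2 arrays with 2 colours and exchanged dyes, which gave 8 arrays and 4 mouse pairs. Pairs carry the number of their DEHP mouse, so DEHP mice 1, 2, 3 and 4 were set against vehicle mice 2, 3, 4 and 1.

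Chaperones bind unfolded or newly made proteins and help them to fold. HSP70 proteins hold exposed stretches of a client in cycles driven by ATP, HSP90 proteins finish the folding of kinases and receptors, and the lectin chaperones calnexin and calreticulin hold glycoproteins in the ER. Male germ cells make their own versions of several of these proteins: HSPA2 in spermatocytes, HSPA1L in spermatids, and calmegin (Clgn) and calsperin (Calr3) as relatives of calnexin and calreticulin. In mice, loss of Hspa2 arrests meiosis, and loss of Clgn or Calr3 leaves males sterile or nearly so.

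The probes that carried the results are shown by their first 30 bases out of 60, written 5′ to 3′ in lower case as the array files give them, because each value below is the signal of that sequence alone. Hsp90aa1 and Clgn had 1 probe each and were lower in DEHP mice in all 4 pairs after loess normalisation. Both probes of Hspa2 are given because their ratios differed, and both probes of Hspa8 because of where the array design placed them.
Hsp90aa1: caaggcttgtgaatggaaataacagtgccc
Clgn: ctaagtatctagcaatgttactctttcaga
Hspa2 bright probe: ttaagctctttttgttgttgttaagcttac
Hspa2 second probe: gaggggcaagattagcgagcaggacaaaaa
Hspa8 bright probe: gcaactgtggaagatgagaaacttcaaggc
Hspa8 second probe: ttgaggtcaaatcaacagctggagacaccc
The array files give probe positions in the mm7 build. Those of Hsp90aa1 (chr12:108209304-108209363, minus strand) and Clgn (chr8:82005178-82005237, plus strand) each cover 60 bases in a row. The Hspa2 probes lie at chr12:74364884-74364943 and chr12:74364402-74364461 on the plus strand. Both Hspa8 probes were placed on chromosome 5, at chr5:5787852-5787911 and chr5:5788853-5788912, whereas RefSeq gives Hspa8 on chromosome 9 in GRCm38.p6. Hspa8 has near-identical processed copies in the genome, so its values are uncertain as those of 1 gene. Exon and UTR positions in mm7 were not used here.

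Promoters of 3 ER chaperones held the ER stress element, the sequence through which the unfolded protein response acts on ER chaperone genes. The stretches are from the RefSeq promoter table (GRCm38.p6), 5′ to 3′ on the gene's strand, and capitals mark the element.
Hspa5: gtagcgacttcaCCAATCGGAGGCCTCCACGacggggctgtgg
Canx: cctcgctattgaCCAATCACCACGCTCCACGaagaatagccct
Calr: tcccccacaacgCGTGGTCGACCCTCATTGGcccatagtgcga
They lie at chr2:34772013-34772055 (plus strand), chr11:50325788-50325830 (minus strand) and chr8:84847063-84847105 (minus strand). The letters searched were CCAAT and CCACG with any 9 bases between them, on both strands, in windows of 300 bases that run from 250 before the start of the gene to 50 after it. The match began at -65 for Hspa5, -145 for Canx and -162 for Calr, where it lay on the opposite strand. It was found in 3 of the 7 promoters listed for 6 members (Hspa5, Canx, Calr, Hspa2, Hspa1l and Calr3, the last with 2), against 0.119% of all 32851 promoters listed. The heat shock element, searched as GAA, TTC and GAA with any 2 bases between neighbours, was in 0.603% of all promoters. The cyclic AMP element TGACGTCA was in 1.79%, and neither was in the 7. The promoters of Hsp90aa1, Hsp90ab1, Hspa8 and Clgn were not analysed here. A match is a description of letters and does not show that a factor binds.

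Signals well above background came from 49.8% to 59.5% of the spots in a channel and none was saturated, and precision is limited by how few mice and arrays there were. Across probes, the 2 arrays of the same mice correlated by 0.544 to 0.717 once turned to DEHP over vehicle, and arrays of different pairs by -0.358 to 0.31. The labels state which dye each mouse carried, so every ratio was turned by them. Slide 1 carried all 4 arrays that had DEHP in the red dye (Cy5), and slide 2 all 4 that had it in the green dye (Cy3), so the effect of a slide and that of a dye cannot be told apart. The labelled tissue was checked against markers. Of 19 Sertoli cell markers 15 were measured, while Gata4, Espn, Kitl and Dmrt1 were not above background, and germ cell markers were present as well: 16 of 17 for spermatocytes, 17 of 17 for round spermatids and 12 of 12 for elongating spermatids. The extraction protocol in the labels speaks of Leydig cells although title and tissue name Sertoli-rich areas. Of 10 Leydig cell markers 6 were measured, with Cyp11a1, Hsd3b6, Hsd17b3 and Lhcgr not above background. In such mixed captures, fewer cells of a type and less RNA per cell cannot be told apart.

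None of the chaperones differed between DEHP and vehicle mice beyond the threshold. In limma, with Benjamini-Hochberg adjustment over all kept probes, 0 of the 10 members had an adjusted p under 0.05, against 0% of all probes (0 of 22975, smallest adjusted p 0.902). Without adjustment 3 members had p under 0.05, all with lower signals in DEHP mice: Hsp90aa1, Clgn and Canx. That count was 0 when arrays were only centred on their median, 1 (Clgn) with Agilent's processed ratios, and 0 without pair 1 or without pair 3. Among all probes 4.58% had an unadjusted p under 0.05 (1053 probes), and 2.29% had one and were lower. The mean log2 ratio of DEHP over vehicle, taken for each gene from its brightest probe, was below 0 for 9 of 10 members, against 51.1% of all probes, though for 4 of 10 under that centring. The members had a median log2 ratio of -0.098, against -0.0021 for all probes, and of 0.029 under that centring, against 0.012 for all probes. Under loess the members' median was -0.087, -0.19, -0.11 and -0.16 with pair 1, 2, 3 and 4 left out in turn. Hsp90aa1 and Clgn were the 2 members lower in all 4 pairs, which 7.08% of all probes were, and 0 members were higher in all 4, which 6.56% of all probes were.

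**Figure D1:**
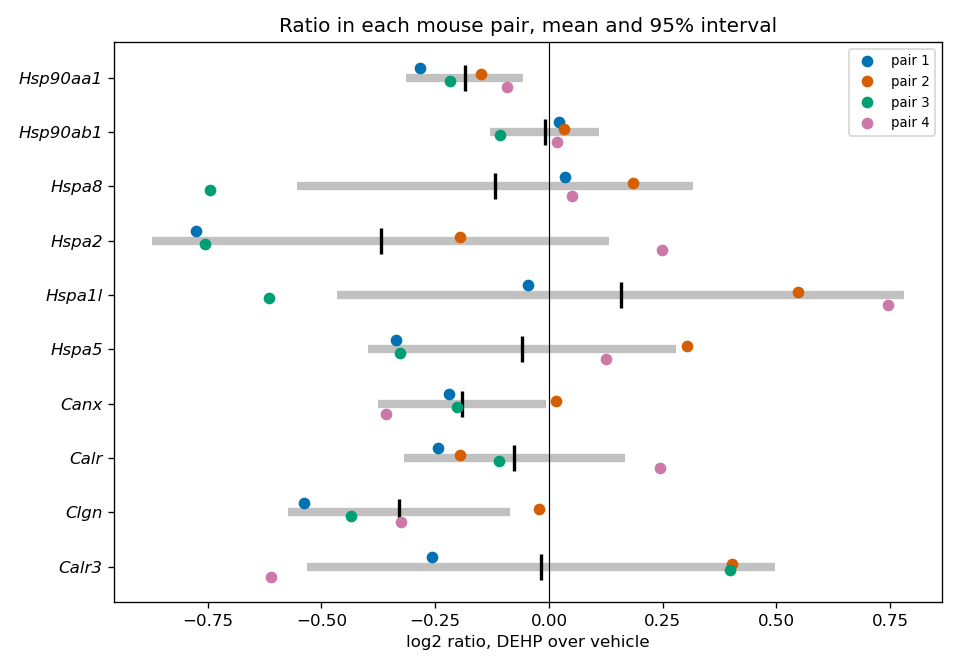
Log2 ratio of DEHP over vehicle for the brightest probe of each of the 10 chaperones. Points are the 4 mouse pairs and bars are the mean with the 95% interval from limma, with the 0 line for equal signal. Hsp90aa1 and Clgn have all 4 points below 0, although the mean of Hsp90aa1 is 0.037 when arrays are only centred on their median, and Hspa1l, Hspa2 and Calr3 have points on both sides that lie far apart.

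Hsp90aa1 encodes HSP90 alpha, the HSP90 form that is inducible in most tissues and strong in the testis, where mice need it for meiosis. Its normalised log2 intensity was 16.13, 16.10, 16.15 and 16.17 in DEHP mice 1 to 4, and 16.26, 16.42, 16.25 and 16.37 in vehicle mice 1 to 4. Every DEHP mouse lay below every vehicle mouse, which was so for no other member, while 1.81% of all probes had groups that did not overlap and 1.04% had the DEHP mice below. In the brightest 5% of probes, to which Hsp90aa1 belonged, these shares were 2.52% and 1.65%. Its log2 ratio was -0.28, -0.15, -0.22 and -0.093 in pairs 1 to 4. The mean was -0.19 ± 0.083 (SD, n = 4 pairs), a fold of 0.879 with a 95% interval of 0.804 to 0.962. In limma the unadjusted p was 0.0143, rank 174 of 22975 probes, and the adjusted p was 0.902, so the difference did not pass. All 8 arrays gave a ratio below 0, with means of -0.21 where DEHP was in Cy5 and -0.17 where it was in Cy3. The direction did not hold under median centring without the loess step, where the mean was 0.037. Hsp90aa1 was among the brightest 5% of probes (1149 probes), which under that centring had a median of 0.18, against 0.012 for all probes, and under loess -0.0028.

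Hsp90ab1 encodes HSP90 beta, the constitutive form. The log2 level of its brightest probe (chr17:43697681-43697740, mm7) was 9.63, 9.46, 9.30 and 9.495 in DEHP mice and 9.48, 9.61, 9.43 and 9.41 in vehicle mice, and the groups overlapped. Its log2 ratio was 0.021, 0.033, -0.11 and 0.018 in pairs 1 to 4, with a mean of -0.0090 ± 0.066 (SD, n = 4). The 95% interval of -0.13 to 0.11 was the narrowest among the brightest probes, and the limma adjusted p was 0.985. Pair 3 alone was below 0. A second, dimmer probe, above background in 4 of 8 DEHP channels and 4 of 8 vehicle channels, had a mean of -0.0048 ± 0.105.

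**Figure D2:**
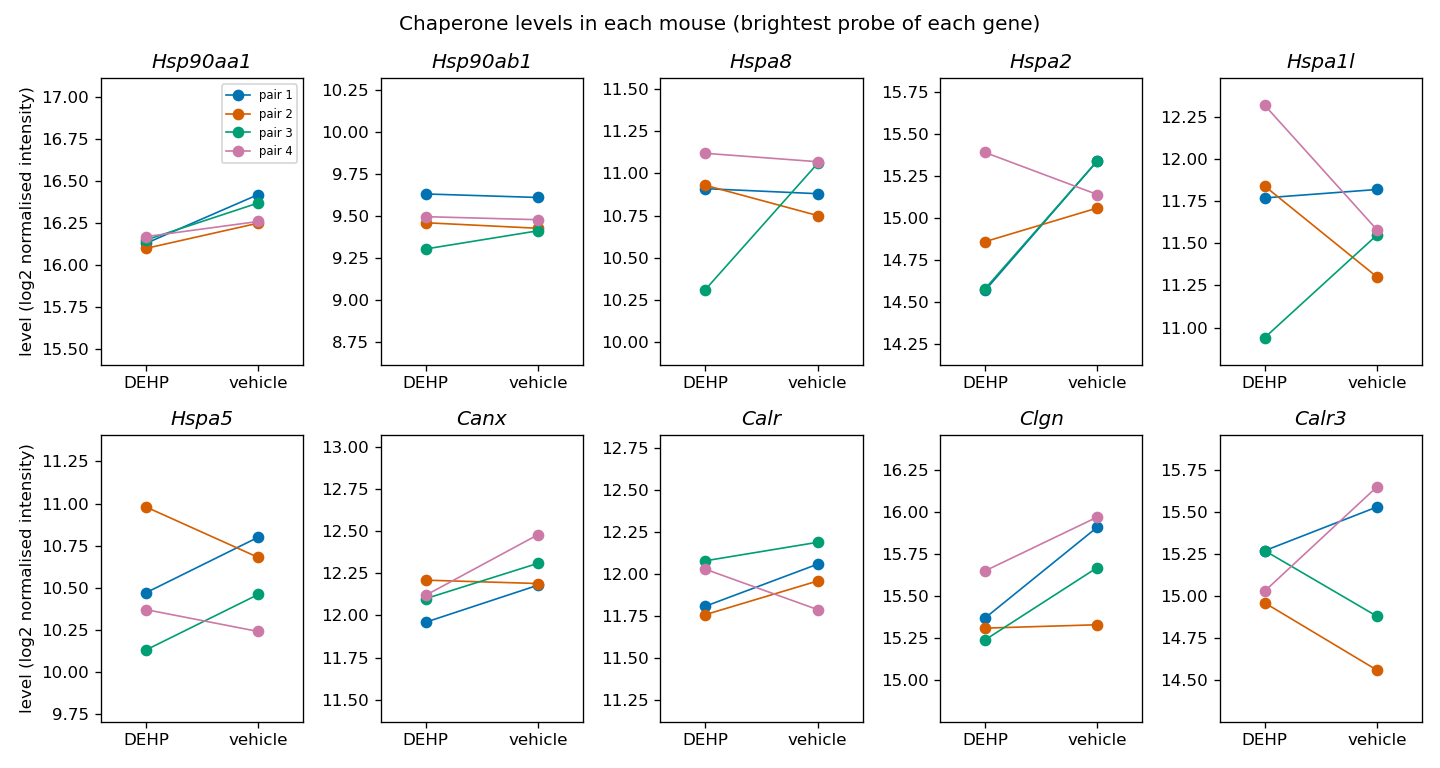
Normalised log2 intensity of each chaperone's brightest probe in the 4 DEHP mice (left in each panel) and the 4 vehicle mice (right). Lines join every DEHP mouse to the vehicle mouse of its pair. Each panel has its own axis because intensities of different probes are not comparable, and Hsp90aa1 is the panel in which the groups do not overlap.

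Hspa8 encodes HSC70, the constitutive cytosolic HSP70. Its brightest probe had log2 levels of 10.91, 10.93, 10.31 and 11.12 in DEHP mice and 11.07, 10.88, 10.75 and 11.06 in vehicle mice. DEHP mouse 3 was the lowest of the 8 and the groups overlapped. In pairs 1 to 4 its log2 ratio was 0.034, 0.18, -0.75 and 0.052, with a mean of -0.12 ± 0.42 (SD, n = 4; limma adjusted p 0.945). That mean rested on pair 3, without which it was 0.090. The second probe, near background (well above it in 5 of 8 DEHP channels and 4 of 8 vehicle channels), had -0.25 in pair 3 and a mean of -0.044 ± 0.15.

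Hspa2 encodes the HSP70 of meiotic spermatocytes, which in mice is required to take apart the synaptonemal complex and to activate the cyclin-dependent kinase CDK1. Its brightest probe had log2 levels of 14.57, 14.86, 14.58 and 15.39 in DEHP mice and 15.14, 15.34, 15.06 and 15.34 in vehicle mice. DEHP mice 1 to 3 lay below all 4 vehicle mice and DEHP mouse 4 above them. Log2 ratios were -0.78, -0.20, -0.76 and 0.25, with a mean of -0.37 ± 0.49 (SD, n = 4), the lowest mean among the members. With pair 1, 2, 3 and 4 left out in turn the mean was -0.23, -0.43, -0.24 and -0.58. With arrays only centred on their median it was -0.18, and over both probes -0.22. The fold was 0.774 with a 95% interval of 0.546 to 1.096, and limma gave an unadjusted p of 0.117 and an adjusted p of 0.902. The second probe gave 0.28, 0.12, -0.57 and -0.10, with a mean of -0.068 ± 0.37. The probes differed by 1.06 in pair 1 and shared a sign in pair 3 alone. Spermatocyte markers, 16 of 17 of them measured, had a summed intensity of 295616 to 321929 in DEHP mice and 271312 to 329145 in vehicle mice and a median log2 ratio of -0.053. Their medians were -0.048, 0.070, -0.0052 and -0.015 in pairs 1 to 4, and their part in the Hspa2 values was not tested. Summed intensities, here and below, add different probes on a linear scale, so the brightest weigh most, here Ldhc.

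Hspa1l encodes the HSP70-like protein of spermatids, from the same cluster on chromosome 17 as the heat-inducible Hspa1a. Its probe (chr17:33075774-33075833, mm7) had log2 levels of 11.77, 11.84, 10.94 and 12.32 in DEHP mice and 11.58, 11.82, 11.30 and 11.55 in vehicle mice. The lowest and the highest of the 8 mice were both DEHP mice, numbers 3 and 4. The SD over all 8 mice, 0.412, was the largest of the 10 genes. Its log2 ratio was -0.046, 0.55, -0.61 and 0.74 in pairs 1 to 4, and the mean was 0.16 ± 0.61 (SD, n = 4; 95% interval -0.47 to 0.78; limma adjusted p 0.945). It was the member with a mean above 0, and without pair 4 the mean was -0.038. Round spermatid markers had medians of 0.067, 0.14, -0.12 and -0.32 in the same pairs, with summed intensities of 349977 to 383319 in DEHP mice and 356466 to 395200 in vehicle mice. Elongating spermatid markers had medians of -0.42, 0.072, 0.12 and 0.20, and summed intensities of 774810 to 1084246 in DEHP mice and 793603 to 1097082 in vehicle mice. The part of either in the Hspa1l values was not tested. The brightest markers in these sums were Dkkl1 and Zpbp2 for round spermatids, and Prm2, Odf2 and Prm1 for elongating spermatids.

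Hspa5 encodes BiP, the HSP70 of the ER lumen and a central target of the unfolded protein response. Its probe (chr2:34783421-34783480, mm7) had log2 levels of 10.47, 10.98, 10.13 and 10.37 in DEHP mice and 10.24, 10.80, 10.68 and 10.46 in vehicle mice. The groups overlapped, with a DEHP mouse at each end of the range. Log2 ratios were -0.34, 0.30, -0.33 and 0.12, with a mean of -0.059 ± 0.32 (SD, n = 4), a 95% interval of -0.40 to 0.28 and a limma adjusted p of 0.964. Pairs 1 and 3 were below 0 and pairs 2 and 4 above. Arrays with DEHP in Cy5 had a mean of 0.047 and the exchanged arrays one of -0.16.

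Canx encodes calnexin, the membrane-bound lectin chaperone of the ER. Its brightest probe (chr11:50251302-50251361, mm7) had log2 levels of 11.96, 12.21, 12.10 and 12.12 in DEHP mice and 12.48, 12.18, 12.19 and 12.31 in vehicle mice, and DEHP mouse 2 lay within the vehicle range. The log2 ratio was -0.22, 0.015, -0.20 and -0.36, with a mean of -0.19 ± 0.15 (SD, n = 4), a fold of 0.876. The limma unadjusted p was 0.0442 and the adjusted p 0.902. A second probe (chr11:50251881-50251940, mm7) had a mean of -0.16 ± 0.22 with an unadjusted p of 0.140. The third, whose mm7 position spans 782 bases for a probe of 60 (chr11:50253061-50253842), had a mean of -0.051 ± 0.32. For the brightest probe the mean was 0.065 with DEHP in Cy5 and -0.45 with the dyes exchanged, a gap of 0.51 that exceeded the gap of 98.6% of all probes.

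Calr encodes calreticulin, the soluble, calcium-binding lectin chaperone of the ER. Its brightest probe (chr8:83428403-83428462, mm7) had log2 levels of 11.81, 11.76, 12.08 and 12.03 in DEHP mice and 11.79, 12.06, 11.96 and 12.19 in vehicle mice. The groups overlapped, with DEHP mouse 2 the lowest of the 8 and vehicle mouse 4 the highest. Log2 ratios were -0.24, -0.20, -0.11 and 0.24, with a mean of -0.076 ± 0.22 (SD, n = 4; limma adjusted p 0.934). All 4 arrays with DEHP in Cy5 gave a ratio below 0 and all 4 of the exchanged arrays one above it. The orientation means were -0.38 and 0.23, and this gap of -0.60 was larger in size than that of 99.2% of all probes. A second probe (chr8:83430740-83430799, mm7) gave 0.52, 0.047, -0.27 and 0.24, with a mean of 0.13 ± 0.33, the opposite sign.

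Clgn encodes calmegin, the calnexin relative of spermatocytes and spermatids, which in mice folds the ADAM proteins of the sperm surface. Its log2 level was 15.37, 15.31, 15.24 and 15.65 in DEHP mice and 15.97, 15.91, 15.33 and 15.67 in vehicle mice. The means were 15.39 ± 0.18 in DEHP mice and 15.72 ± 0.29 in vehicle mice (SD, n = 4 each), and the groups overlapped, since vehicle mouse 3 lay below DEHP mice 1 and 4. The log2 ratio was -0.54, -0.022, -0.43 and -0.33 in pairs 1 to 4, with a mean of -0.33 ± 0.22 (SD, n = 4). That is a fold of 0.796 with a 95% interval of 0.672 to 0.943. The limma unadjusted p was 0.0179 and the adjusted p 0.902. Clgn was also among the brightest 5% of probes, and with arrays only centred on their median its mean was -0.12, no longer with an unadjusted p under 0.05. Of 8 arrays 7 gave a ratio below 0, with means of -0.44 where DEHP was in Cy5 and -0.22 where it was in Cy3.

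Calr3 encodes calsperin, the calreticulin relative of spermatids that mice need for mature ADAM3 on sperm. Its probe (chr8:70947458-70947517, mm7) had log2 levels of 15.27, 14.96, 15.27 and 15.03 in DEHP mice and 15.65, 15.53, 14.56 and 14.88 in vehicle mice. The 4 DEHP mice lay inside the range of the vehicle mice, with an SD of 0.16 in DEHP mice and 0.52 in vehicle mice. The log2 ratio was -0.26, 0.40, 0.40 and -0.61, with a mean of -0.017 ± 0.50 (SD, n = 4; 95% interval -0.53 to 0.50; limma adjusted p 0.994).

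Over all 10 genes the 95% intervals ran from a fold of 0.546 at the lowest bound to 1.72 at the highest, so the arrays did not limit the change of every chaperone to a narrow range. The SD over the 4 pairs was 0.066 for Hsp90ab1 and 0.083 for Hsp90aa1, below the median SD of all probes, 0.152. For the other 8 members it exceeded that median.

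The members also differed by pair. Below 0 were 8 of 10 in pair 1, 4 in pair 2, 9 in pair 3 and 4 in pair 4, with medians of -0.25, 0.024, -0.27 and 0.035. Of all probes 49.7%, 49.98%, 51.9% and 49.7% were below 0 in the same pairs. In pair 3 Calr3 was the member above 0, and in pair 1 Hsp90ab1 and Hspa8 were. Sertoli cell markers, 15 of 19 of them measured, had medians of 0.090, 0.14, -0.13 and 0.022 in pairs 1 to 4, with summed intensities of 40564 to 57204 in DEHP mice and 36246 to 51568 in vehicle mice. The Leydig cell marker Insl3 had log2 ratios of -0.98, 2.23, -1.49 and -0.25 in these pairs. Leydig markers summed to 3405 to 11716 in DEHP mice and 3535 to 11590 in vehicle mice, mostly from Insl3 itself. The part of these cells in the chaperone values was not tested.

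Where a gene had more than 1 probe, the probes often disagreed. Of 5 such members (Hsp90ab1, Hspa8, Hspa2, Canx and Calr), the probes shared a sign in 10 of 20 combinations of gene and pair. The means of the probes shared a sign in 4 of the 5, all but Calr. The largest gap between probes was 1.06 for Hspa2, 0.76 for Calr and 0.62 for Canx, each in pair 1.

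**Figure D3:**
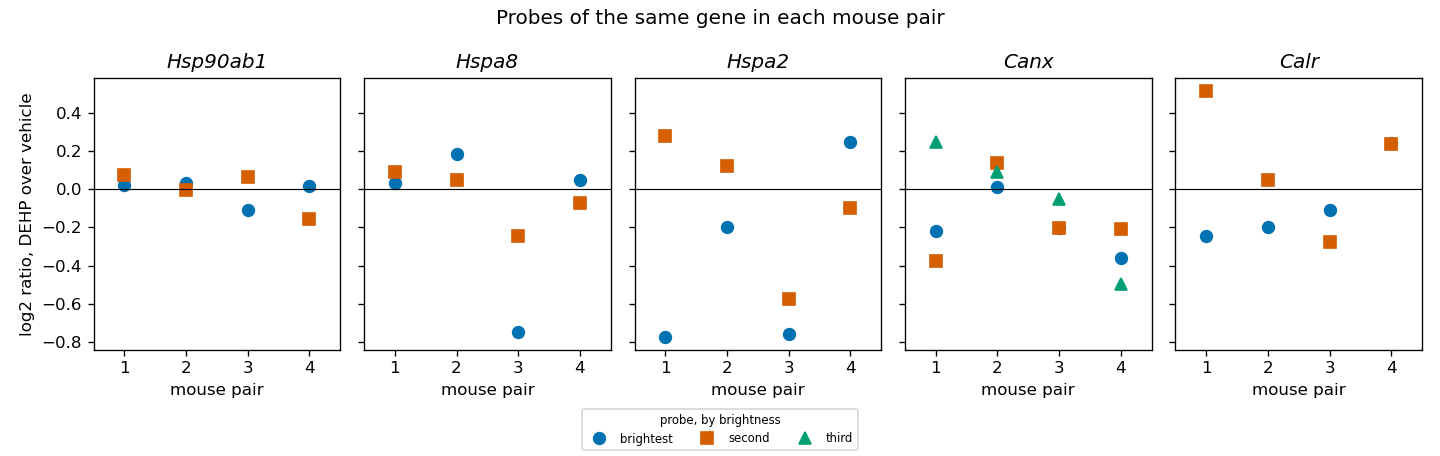
Log2 ratio of DEHP over vehicle in each of the 4 mouse pairs for the 5 chaperones with more than 1 probe, with a symbol per probe in order of brightness. The Hspa2 probes lie 1.06 apart in pair 1, and the Hsp90ab1 probes at most 0.172 apart.

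Dye orientation separated some members. The sign of the mean differed between the orientations for 5 of 10 members, against 42.7% of all probes. With DEHP in Cy5, 6 members were below 0, and with the dyes exchanged 7 were. The gap between orientations had a median size of 0.0896 over all probes and a 95th percentile of 0.356, which Canx and Calr exceeded in opposite directions. For Hspa2 the orientations gave -0.37 each, and for Hsp90aa1 the gap was -0.040.

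**Figure D4:**
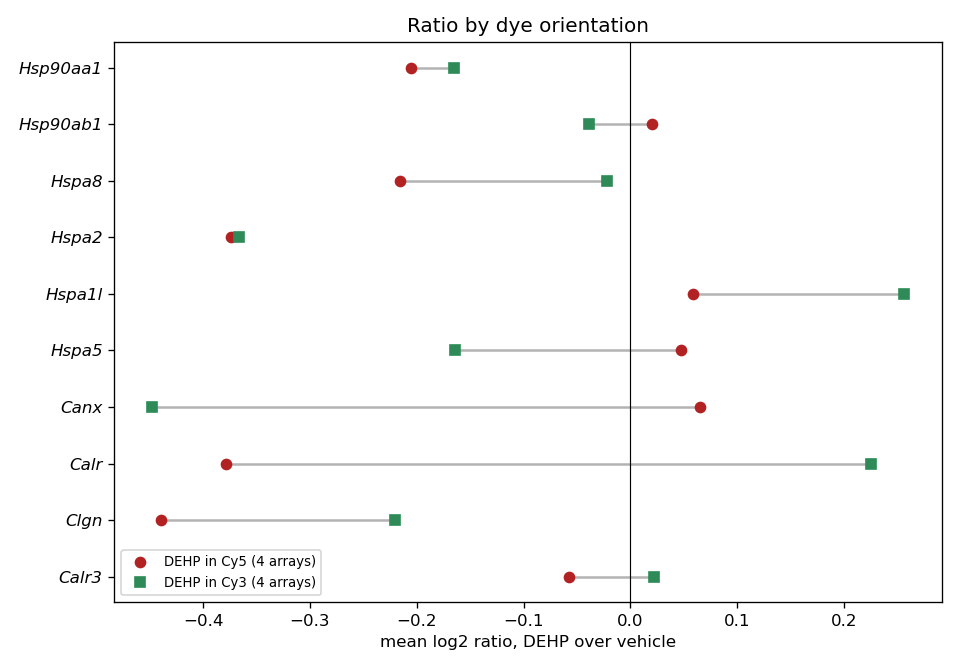
Mean log2 ratio of DEHP over vehicle for each chaperone's brightest probe, on the 4 arrays that had DEHP in Cy5 and the 4 that had it in Cy3. Hsp90aa1, Hspa2, Clgn and Hspa8 are below 0 in both orientations, while Canx and Calr have the widest gaps, 0.51 and -0.60.

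The genes whose levels over the 8 mice were most like those of Hsp90aa1 were Usp1, a deubiquitinase, Actr1b, a part of the dynactin complex, and a clone without a gene symbol. Each gene's log2 levels were centred on their own mean, and the mean absolute difference from Hsp90aa1 was 0.0363, 0.0366 and 0.0366, with a median of 0.136 over 16968 genes. Usp1 had log2 levels of 14.16, 14.26, 14.19 and 14.25 in DEHP mice and 14.31, 14.48, 14.36 and 14.48 in vehicle mice. Its groups did not overlap, which its choice by likeness to Hsp90aa1 largely fixed beforehand. Actr1b was dim, with log2 levels of 7.12 to 7.20 in DEHP mice and 7.21 to 7.38 in vehicle mice, close to those of the second Hspa8 probe. For Hspa1l the nearest gene was Fkbp4, an HSP90 co-chaperone of steroid receptors, at 0.119, with a median of 0.318 over genes. Fkbp4 had log2 ratios of -0.0076, 0.22, -0.36 and 0.48 in pairs 1 to 4, with a mean of 0.084 ± 0.36, and its other probe had a mean of -0.23. The RNA-binding protein gene Qk was the second, at 0.144, and a transcript without a gene symbol the third, at 0.151. Among the members themselves, Hspa8 was nearest to Hspa1l, at 0.219.

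Around the members, 10 lists of chaperone partners, regulators and clients were read, with 182 distinct genes measured. Of these 0 were called by limma after adjustment, and 9 had an unadjusted p under 0.05, a share near that of all probes. The median log2 ratio of the 182 was -0.021, and 104 of the 182 were below 0, against 51.1% of all probes. When arrays were only centred on their median, the medians of all 10 lists lay above 0. Each list is given by its counts and median, with the 2 genes of lowest unadjusted p. The adjusted p of those named was 0.902, except for 0.908 each for Chac1 and Shcbp1l.

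Across the chaperone families, which were not limited to the cytosol, the 22 genes listed as HSP90 co-chaperones had 10 above 0 and 12 below. Their median log2 ratio was -0.012, and 1 of the genes listed, Trap1 (-0.11), is an HSP90 protein itself. The immunophilin Fkbp5 had -0.18 ± 0.26 and Nudc, a nuclear distribution protein that works with HSP90, -0.18 ± 0.26 (SD, n = 4 pairs, here and for the genes below). Of the other HSP70 and HSP110 proteins and exchange factors 20 of 21 were measured, 7 above and 13 below, median -0.090. Hspa4l, an HSP110 relative strong in the testis, had -0.16 ± 0.13, and Sil1, the exchange factor of BiP, -0.20 ± 0.19. The HSP40 proteins, which deliver clients to HSP70, had 14 above and 22 below among 36 of 37 measured, median -0.030. In that list Dnajc13, an endosomal HSP40, had -0.15 ± 0.12, and Dnaja1, a cytosolic partner of HSC70, -0.28 ± 0.29, with 1 of its 2 other probes of opposite sign. Chaperonins and prefoldin had 5 above and 11 below among 16 of 17, median -0.013. Pfdn1, a prefoldin subunit, had 0.27 ± 0.19 (unadjusted p 0.0237) and Tcp1, a chaperonin subunit, -0.18 ± 0.11 (unadjusted p 0.0261), with its other probe of opposite sign. Of 10 small heat shock proteins 7 were measured, 5 above and 2 below, median 0.071. Odf1, a protein of the sperm tail's outer dense fibres, had 0.18 ± 0.20, and Hspb7, a small heat shock protein of heart muscle, 0.099 ± 0.094. Of 8 heat shock factors and their binding proteins 6 were measured, 2 above and 4 below, median -0.031. Hsbp1, a binder of heat shock factor trimers, had 0.12 ± 0.16, and its relative Hsbp1l1 0.23 ± 0.19 (unadjusted p 0.0414).

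In the ER, 31 of 35 folding enzymes and chaperones were measured, 13 above and 18 below 0, with a median of -0.027 and 4 with an unadjusted p under 0.05, against 4.58% of all probes. Ero1b, an oxidase that drives disulfide formation, had log2 ratios of -0.11, -0.21, -0.17 and -0.23, a mean of -0.18 ± 0.054 and an unadjusted p of 0.00960. Dnajb11, an HSP40 partner of BiP, had 0.29, 0.12, 0.14 and 0.16, a mean of 0.18 ± 0.075 and an unadjusted p of 0.0151. These 2 genes lay on opposite sides of 0 in all 4 pairs. The unfolded protein response list had 7 above and 8 below among 15 of 20 measured, with a median of -0.012. Herpud1, an ER protein of the degradation machinery, had -0.11 ± 0.11, and Chac1, a glutathione-degrading enzyme downstream of ATF4, 0.20 ± 0.36.

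**Figure D5:**
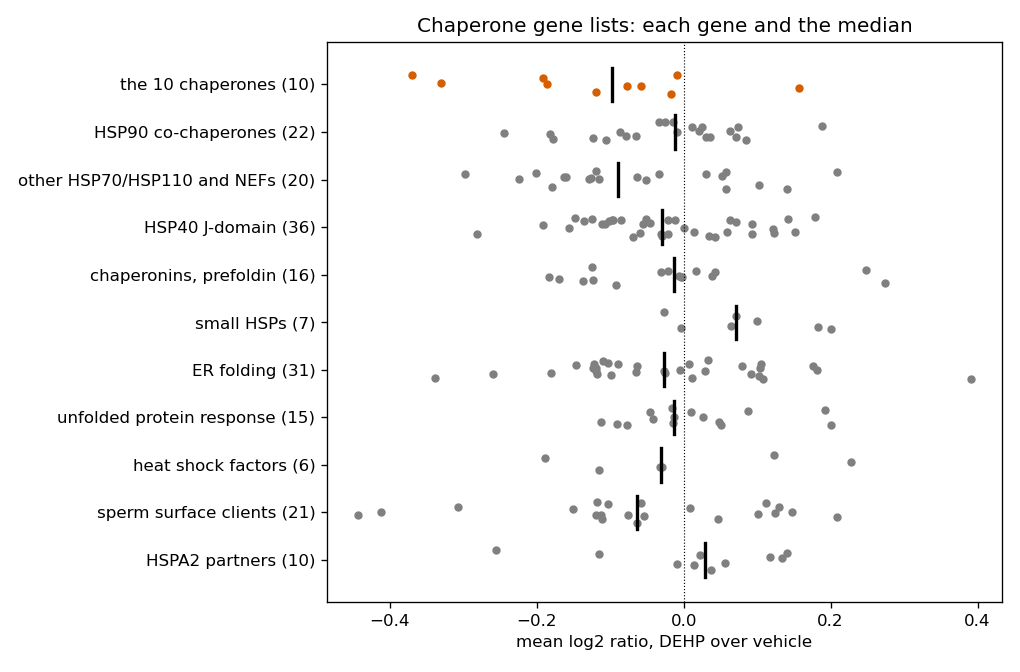
Log2 ratios of DEHP over vehicle for the measured genes of the 10 chaperone lists and for the 10 members, 1 point per gene (mean of 4 pairs) with each list's median as a bar. The list medians lie between -0.090 and 0.071, and the members' median is -0.098. When arrays are only centred on their median, all 10 list medians and the members' median of 0.029 lie above 0.

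Genes known to respond to heat or to ER stress gave values on both sides of 0, and they were picked out after their values were seen. Of 4 heat-inducible genes, 3 were below 0 and 1 above. Hspa1a, the inducible HSP70, had a mean of -0.16 ± 0.62 that pair 4 dominated with -1.06, and Dnajb1, an inducible HSP40, had -0.012 ± 0.30. Hsph1 had -0.064 ± 0.21 and Hspb1 0.071 ± 0.16. Among genes inducible by ER stress, the secreted factor Manf had -0.12 ± 0.083 (unadjusted p 0.0667), Dnajc3, an HSP40 of the ER, -0.34 ± 0.28 (unadjusted p 0.0342) and Creld2, a secreted ER protein, -0.26 ± 0.24 (unadjusted p 0.0509), while Dnajb11, above, lay on the other side of 0. Hsp90b1, the HSP90 of the ER, had 1.20, 0.43, -0.44 and 0.38 in pairs 1 to 4, a mean of 0.39 ± 0.67, while its other probe had -0.20. The transcription factors Ddit3 and Atf4 had 0.088 ± 0.18 and -0.014 ± 0.29. Hyou1 had -0.098 ± 0.20, Pdia6 -0.12 ± 0.13, Dnajb9 0.0073 ± 0.33 and Sdf2l1 0.10 ± 0.19. Apart from Dnajc3, Creld2 and Dnajb11, these were 8 genes inducible by ER stress, 4 below 0 and 4 above. Dnajc3 and Creld2 add to those below and Dnajb11 to those above, so the tally depends on which genes were picked.

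In germ cells, all 21 genes listed under sperm surface proteins of the calmegin and calsperin pathway were measured. Of these, 8 were above and 13 below 0, with a median of -0.063. Not all of them are clients or surface proteins, as the list also holds enzymes such as Pdilt. Adam1b, a subunit of the fertilin dimer that calmegin helps to build, had -0.71, -0.57, -0.35 and -0.017, a mean of -0.41 ± 0.30 and an unadjusted p of 0.0210, with 1 of its 2 other probes of opposite sign. Cmtm2b, which mice need for ADAM3 on sperm, had 0.21 ± 0.17 (unadjusted p 0.0401). Picked after their values were seen, the fertilin subunits Adam2 and Adam1a had -0.054 ± 0.14 and 0.0081 ± 0.23, Adam3, the sperm protein lost without calmegin or calsperin in mice, had -0.076 ± 0.17, and Adam32 had -0.44 ± 0.48 with -1.14 in pair 1. Pdilt, the testis disulfide isomerase that works with calsperin, had -0.10 ± 0.40. The 10 HSPA2 partners of meiosis and spermiogenesis had 7 above 0 and 3 below, with a median of 0.030. Tnp2, a transition protein that HSPA2 chaperones in mouse spermatids, had 0.13 ± 0.12, and Shcbp1l, a spindle protein of meiosis, 0.12 ± 0.21.

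The authors' deposited table of log2 ratios gave means for 9 member probes. Hsp90aa1, Clgn, Hspa5, Calr3 and the brightest probe of Hspa2 were not among them. For brightest probes, the authors' deposited table had means of -0.0075 for Hsp90ab1, 0.16 for Hspa1l and -0.18 for Canx. In the authors' deposited table Hspa8 had -0.16 and Calr -0.016, both without a value in pair 1. All 5 have the sign of the means above, from the same arrays. For the second Hspa2 probe the authors' deposited table gave -0.069.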

How the data were processed

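RNA from laser-captured areas of 4 DEHP and 4 vehicle mice was amplified and measured on 8 Agilent arrays. The authors deposited the scanned intensity of each spot, its mean foreground and median background, from Agilent Feature Extraction 9.5.1.1, per the file headers without subtraction. Per the file headers, the same software gave the log10 ratio of Cy5 over Cy3 from background-subtracted, dye-normalised signals. A further deposited table holds the authors' log2 ratios, for which the submitters' processing notes name limma. Its version, background correction, normalization and filter are not given in the sources used here. From the values, its rows follow the order of the spots and its direction is DEHP over vehicle. Its slope on Agilent's processed ratios, turned to DEHP over vehicle by the labels, was 0.910 to 0.951.

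Background was corrected with normexp (offset 50) and ratios were normalised by loess within arrays. Control spots and 154 to 209 outlier spots per array were left out, and spots of a probe were averaged. Levels per mouse are the mean of its Cy5 and Cy3 channels after Aquantile scaling. The 2 arrays of a pair were averaged, leaving 4 independent values. A probe was kept where 4 or more of the 8 channels of either group were well above background. An intercept was fitted to all kept probes with limma 3.58.1 in R 4.3.3, with its moderated test (2-sided) and p-values adjusted by Benjamini-Hochberg (threshold 0.05). The fit was tested on simulated data. Mouse pairs come from the labels, which name both mice of each array.

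Probes were matched to RefSeq symbols (22951 by accession, 6659 by symbol, 3109 by synonym, 8455 unmatched). The brightest kept probe stands for a gene. Named genes are all members, the 2 genes with the lowest unadjusted p in each list, and the 3 genes nearest to Hsp90aa1 and to the member that varied most, with further genes said to be picked after their values were seen. Members and lists were chosen with earlier results of these data known. Alternatives covered background, normalization, filter, dyes, pairs, variance model, probes per gene, the authors' deposited ratios and each pair left out.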

Additional observations from a re-analysis of the deposited data

Results flagged for a closer look

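In 2 of 48 groups of 4 values checked, 1 value stood far from the others, and chance alone would do so in about 1 of 20 groups. Both were in pair 3, which held DEHP mouse 3 and vehicle mouse 4. The brightest probe of Hsp90ab1 had a log2 ratio of -0.108 there, against 0.018 to 0.033 in the other pairs. The brightest probe of Hspa8 had -0.746 there, against 0.034 to 0.18 in the other pairs. Without pair 3 the means were 0.024 for Hsp90ab1 and 0.090 for Hspa8.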

How the results depend on the processing

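No probe passed in any of the 17 settings run with limma (0 called in each), and 388 to 3246 probes had an unadjusted p under 0.05. With no replicate block, the 8 arrays of the paired mice entered as separate values, the smallest adjusted p was 0.0610 and the lowest of a member 0.143. Hspa2 and Clgn kept their direction in all alternatives that gave them a value, with -0.18 and -0.12 under median centring. The number of members with an unadjusted p under 0.05, 3 in the report, ran from 0 (median centring, without pair 1, without pair 3) to 4 (dye term with random block, without pair 4). It was 1 with a trend in the variance model (Hsp90aa1) and 0 of 5 in the authors' deposited ratios. Those ratios gave no mean for Hsp90aa1, Clgn, Hspa5, Calr3 or the brightest probe of Hspa2. Centring arrays on the median in place of loess turned the mean of Hsp90aa1 to 0.037, Hsp90ab1 to 0.028, Hspa5 to 0.030, Calr to 0.050 and Calr3 to 0.18. It moved the medians of the lists of other HSP70 proteins to 0.0054, HSP40 proteins to 0.055, ER folding to 0.030, the unfolded protein response to 0.12, heat shock factors to 0.12 and sperm surface proteins to 0.098. Arrays with DEHP in Cy5 alone gave 0.021 for Hsp90ab1, 0.047 for Hspa5, 0.065 for Canx and 0.034 for the ER folding list, and the exchanged arrays alone 0.23 for Calr and 0.023 for Calr3. The mean of all probes was 0.028 for Calr. The small heat shock list moved to 0.21 with Agilent's processed ratios and to 0.19 in the authors' deposited table (3 genes). With each pair left out in turn, means ranged from -0.22 to -0.15 for Hsp90aa1, -0.023 to 0.024 for Hsp90ab1, -0.22 to 0.090 for Hspa8, -0.58 to -0.23 for Hspa2, -0.038 to 0.41 for Hspa1l, -0.18 to 0.034 for Hspa5, -0.26 to -0.14 for Canx, -0.18 to -0.020 for Calr, -0.43 to -0.26 for Clgn, -0.16 to 0.18 for Calr3 and -0.19 to -0.087 for the members' median. List medians that changed sign ranged from -0.085 to 0.079 for heat shock factors, -0.11 to 0.040 for sperm surface proteins, -0.062 to 0.026 for HSP40 proteins, -0.027 to 0.018 for chaperonins, -0.030 to 0.021 for the unfolded protein response and -0.014 to 0.060 for HSPA2 partners. The causes of these shifts were not tested.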
